A study of Mus musculus with 2 samples.

Results

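The hair shaft keratin genes considered here are the 10 genes listed in the gene table under the symbols Krt31, Krt32, Krt33a, Krt33b, Krt34, Krt35, Krt36, Krt82, Krt84 and Krt86, out of 32285 genes. They were chosen by name, and all 10 symbols were found once each. Their mRNA was counted in single epithelial cells of the growing hair follicles of P1 mice, in 2 libraries of the same batch (batch 1), whose labels read PADI4 WT and PADI4 cKO and which are called WT and cKO here. In the cKO, K14-Cre deletes the floxed Padi4 gene in skin epithelium, and the tdTomato (Ai14) reporter switched on by the same Cre was used to sort the cells after the epidermis had been peeled from the dermis of back skin. The labels name K14-Cre Padi4 fl/fl mice for the dissection of both samples and do not give the alleles of the WT animals, the number of animals in a library or their sex. PADI4 is an enzyme that converts arginine residues of proteins to citrulline. The questions were which of these keratins were on at P1, in which cells, and whether their levels differed between the libraries.

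Hair keratins are the intermediate filament proteins of the hardened hair. A filament is built from pairs of 1 acidic (type I) and 1 basic (type II) keratin, and in the hair the filaments are embedded in keratin-associated proteins and cross-linked by disulfide bonds. Cells leave the proliferating matrix at the base of the follicle, move upwards, and switch on hair keratins in sequence as they become the cortex (the bulk of the hair), the cuticle around it or the medulla in its core. Krt35 is known as an early type I hair keratin of the upper matrix, precortex and cuticle, and Krt31, Krt33a, Krt33b, Krt34 and Krt36 as type I keratins of the cortex that follow it. Krt32 and Krt82 are type I and type II keratins of the cuticle, Krt86 is a type II keratin of the cortex, and Krt84 is a type II keratin best known from the tongue papillae and the nail.

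The members lie in the keratin clusters of mouse chromosomes 11 and 15 (GRCm38 coordinates, GENCODE M21 models, all annotated as protein coding). On the minus strand of chromosome 11, each with 7 exons, lie the type I genes, in the order Krt33a (100011195 to 100016212), Krt33b (100023634 to 100029868), Krt34 (100037347 to 100041554), Krt31 (100046646 to 100050551), Krt32 (100080848 to 100088226), Krt35 (100092193 to 100096241) and Krt36 (100102007 to 100105626). On chromosome 15, each with 9 exons, lie Krt86 on the plus strand (101473478 to 101479986) and Krt84 (101525026 to 101532820) and Krt82 (101541214 to 101550667) on the minus strand. Because hair keratins resemble each other, the 31-base stretches of the last 500 bases of each transcript, where the reads of this method fall, were compared between all genes. Krt31 shared 9.79% of its stretches with Krt33b, Krt33b shared 6.81% with Krt31, Krt35 shared 0.426% with Krt33a, and the other 7 members shared 0. Reads could thus be told apart for most of each member. Krt32 overlaps a gene on the opposite strand, Gm11571.

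RefSeq promoter sequences (GRCm38.p6), taken as the 120 bases before the transcription start, were found for 7 of the 10 members, all but Krt33a, Krt35 and Krt86, and 4 are printed, all on the minus strand and read 5′ to 3′. Krt32 and Krt36 were on in both libraries, and most WT UMIs of Krt31 and Krt82 came from 2 cells and 1 cell. Capitals mark the TATA box motif TATAAA.
Krt32, chr11:100088270-100088389: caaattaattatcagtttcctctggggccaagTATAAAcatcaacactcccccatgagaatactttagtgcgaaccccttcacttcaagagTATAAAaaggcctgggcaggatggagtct
Krt36, chr11:100105627-100105746: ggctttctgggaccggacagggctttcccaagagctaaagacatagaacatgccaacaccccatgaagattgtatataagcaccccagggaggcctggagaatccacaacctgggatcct
Krt31, chr11:100050552-100050671: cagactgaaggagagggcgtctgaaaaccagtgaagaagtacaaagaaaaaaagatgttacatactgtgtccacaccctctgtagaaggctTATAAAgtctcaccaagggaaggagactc
Krt82, chr15:101550660-101550779: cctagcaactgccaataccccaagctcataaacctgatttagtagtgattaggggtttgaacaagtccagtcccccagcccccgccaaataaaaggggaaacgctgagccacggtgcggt
TATAAA, searched on both strands, was found in 4 of the 7 promoters, against 6.34% of all 32851 promoters of the same length. It began 29 bases before the start in Krt31, 88 and 29 before in Krt32, 47 before in Krt33b and 31 before in Krt34, always on the strand of the gene. CTTTGA, the core that LEF1 and its relatives bind, was found in 0 of the 7 and in 6.10% of all promoters.

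The WT library held 143938990 UMIs and the cKO library 143945294, where a UMI is 1 captured mRNA molecule. After filters on droplets, 7995 WT and 7357 cKO epithelial cells remained, with a median of 14684 and 16205 UMIs per cell, and 17 barcodes with at least 2000 UMIs occurred in both libraries. Padi4, the targeted gene, had 98 UMIs in WT and 92 in cKO (0.770 and 0.711 CPM, the UMIs of a gene per 1000000 UMIs), and counts taken at the 3′ end do not show whether exons further upstream are deleted, so the cKO label was not checked by them. Xist UMIs without Y-linked UMIs were found in 99.7% of the cKO cells and 26.7% of the WT cells, and 59.8% of the WT cells had Y-linked UMIs without Xist UMIs. There was 1 library per group, so no test between libraries was made, and all intervals are exact 95% intervals that cover counting error only.

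The cells were clustered without the members among the genes used, so that their levels could be read in groups they did not define. Of 25 clusters, 18 had at least 50 cells in each library. Cluster 14, with 269 WT and 209 cKO cells, was called Cx-like for the hair cortex: 6 of 11 Cx markers were raised in it, and Dsg4, Krt83 and S100a3 of that list were among its 10 leading genes. It also had 6 of 8 markers of the germinative layer (GL), the proliferating matrix cells, but none of these led it. Cluster 8, with 463 and 336 cells and led by Dpp10, Krt90 and Krtap8-1, had 4 of 5 medulla and 6 of 8 GL markers raised and was left unnamed. Cluster 3 was IRS-like (inner root sheath, the sheath that moulds the hair), clusters 4 and 11 were LPC-like (lower proximal cup, progenitors at the bulb), and clusters 0 and 5 were GL-like.

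Only 4 of the 10 members were on, meaning at least 10 UMIs in each library and a level, with its interval, above that of droplets without a cell. These were Krt35 and Krt86, on in the Cx-like cells and cluster 8, Krt86 also in the IRS-like cells, and Krt32 and Krt36, on in the Cx-like cells alone of the 18 clusters. Of 25905 member UMIs in WT and 23204 in cKO, Krt35 held 91.9% and 92.5%, Krt86 5.24% and 5.56%, and the other 8 members the rest. The Cx-like cells, 3.36% of WT and 2.84% of cKO epithelial cells, held 61.1% (60.5 to 61.7) and 59.0% (58.3 to 59.6) of all member UMIs, and cluster 8 held 22.6% and 23.3%. Without Krt35, the Cx-like cells held 43.4% and 37.97% of the rest. Any member was found in all 269 WT and in 208 of 209 cKO Cx-like cells, and in 92.6% and 92.8% once each cell was thinned to 2000 UMIs.

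**Figure D1:**
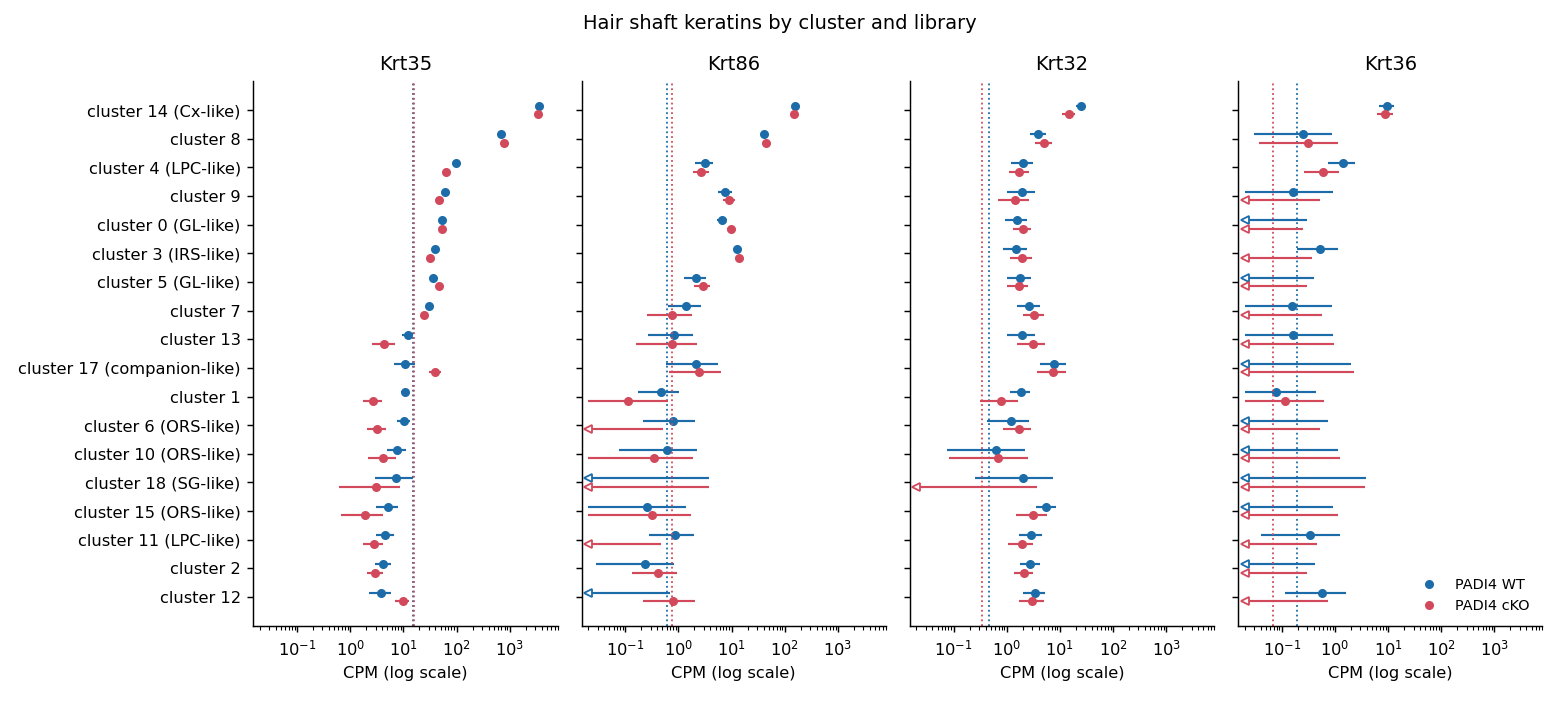
Level in CPM (log axis) of Krt35, Krt86, Krt32 and Krt36 in each of the 18 clusters with at least 50 cells per library, with exact 95% Poisson intervals. Open arrowheads mark clusters with 0 UMIs, interval ends below the axis are cut at its left edge, and dotted lines mark the level that free RNA allows over all epithelial cells of each library. Krt35 is highest in the Cx-like cells, at 3516 and 3468 CPM, and Krt36 stands at 9.42 and 8.79 CPM there.

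Krt35, the type I keratin of the upper matrix and precortex, was at 3516 CPM (3460 to 3573) in the WT Cx-like cells and 3468 CPM (3409 to 3528) in the cKO ones, which is 0.352% and 0.347% of all their UMIs. Single Cx-like cells varied widely. In WT they held 0 to 487 Krt35 UMIs with a median of 37, and in cKO 0 to 257 with a median of 41. At least 10 UMIs were found in 85.9% and 85.6% of them, at least 100 in 41 and 46 cells, and none in 1 and 2 cells. Cluster 8 came next with 673 CPM (656 to 692) in WT and 788 CPM (767 to 810) in cKO, 5.22 and 4.40 times below the Cx-like level, and its cells held a median of 9 and 12 UMIs.

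In the other 16 of the 18 clusters Krt35 was far lower. The LPC-like cluster 4 was at 96.3 and 63.7 CPM in WT and cKO, cluster 9 at 59.6 and 47.0 CPM, the GL-like clusters 0 and 5 at 54.1 and 53.8 CPM and 35.7 and 46.6 CPM, and the IRS-like cells at 40.1 and 32.1 CPM. In WT the intervals of clusters 9 and 0 overlapped, as did those of neighbours among clusters 3, 5 and 7, and in cKO those of neighbours among clusters 0, 9, 5, 17, 3 and 7. In the LPC-like cluster 4 a few cells carried the level: 34 of 437 WT and 25 of 619 cKO cells with at least 10 UMIs held 71.3% and 66.1% of its Krt35 UMIs. In the GL-like cluster 5, cells called as doublets (2 cells in 1 droplet) held 32.5% of the Krt35 UMIs in WT and 64.8% in cKO, and without them its level was 28.2 and 20.5 CPM.

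How much of such a level could be RNA from broken cells was estimated from droplets. Droplets without a cell, those under 100 UMIs, held Krt35 at 192 and 209 CPM. Collagen mRNA, which epithelial cells should lack, put the share of free RNA in the epithelial cells at no more than 7.78% in WT and 7.65% in cKO, which allows a Krt35 level of up to 15.0 and 16.0 CPM over all epithelial cells. This share was not measured per cluster, so free RNA could exceed it in some of them. The level was above these values in 8 of the 18 clusters in WT and 9 in cKO, and at or below them in the rest, which included the ORS-like clusters 6, 10 and 15 (outer root sheath). Over all epithelial cells 19.7% and 18.1% held a Krt35 UMI. Among fibroblast-like cells, which should lack it, 2 of 49 in WT (4.08%, 0.498 to 13.98) and 1 of 26 in cKO (3.85%) held 1 UMI each, at a median of 13757 and 17362 UMIs per cell.

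Krt86, a type II keratin of the cortex, was found in the same cells as Krt35 at a much lower level. It was at 153 CPM (142 to 166) in the WT Cx-like cells and 150 CPM (138 to 163) in the cKO ones, with a median of 2 UMIs per cell in both, and 20.8% and 21.1% of the cells had none. Cluster 8 was at 41.4 and 44.9 CPM, 3.70 and 3.35 times below the Cx-like cells. Unlike Krt35, the next cluster was the IRS-like one, at 12.9 CPM (10.9 to 15.1) and 13.5 CPM (11.3 to 16.0), followed by clusters 9 and 0 at 6.67 to 9.85 CPM. Krt86 was in 14.3% of the WT and 17.7% of the cKO IRS-like cells, against 0 of 49 WT fibroblast-like cells, where a count of 0 (taken as under 3 cells) allows up to 6.12%, and 1 of 26 cKO ones (3.85%, exact interval 0.0973 to 19.6), an interval that takes in the cKO IRS-like share. The same share of free RNA allows 0.613 and 0.753 CPM over all epithelial cells.

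The balance of the 2 keratins differed between cell groups in both libraries. The Cx-like cells held 22.9 Krt35 UMIs per Krt86 UMI in WT (21.2 to 24.8) and 23.0 in cKO (21.2 to 25.1), and cluster 8 held 16.2 and 17.6. In the IRS-like cells the value was 3.11 (2.58 to 3.77) and 2.38 (1.94 to 2.93), and in cluster 0 it was 8.11 and 5.45. Droplets without a cell held 24.4 (18.3 to 33.3) and 21.3 (16.9 to 27.1), a value whose interval took in that of the Cx-like cells and lay above that of the IRS-like cells. UMIs count 3′ ends, so these values compare molecules and need no scaling by length, although capture can differ between genes. Called doublets held 29.9% and 41.7% of the Krt35 UMIs of the IRS-like cells, and Krt35 was at 30.8 and 21.1 CPM without them.

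**Figure D2:**
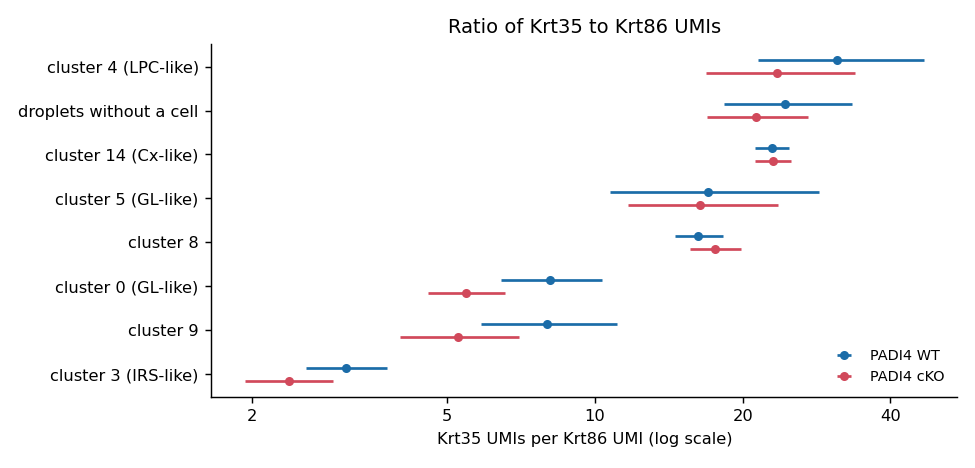
Krt35 UMIs per Krt86 UMI (log axis) in 7 clusters and in droplets without a cell, for each library, with exact 95% intervals. The Cx-like cells sit at 22.9 and 23.0, close to droplets without a cell at 24.4 and 21.3, and the IRS-like cells sit at 3.11 and 2.38.

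Krt36, a type I keratin of the cortex, was sparse but largely kept to the Cx-like cells. These held 40 of its 70 UMIs in WT and 33 of 44 in cKO, which is 9.42 CPM (6.73 to 12.8) and 8.79 CPM (6.05 to 12.3). The UMIs came from 25 and 19 cells with at most 5 each, so no cell decided the level. Cluster 8, where Krt35 and Krt86 were also on, held 2 Krt36 UMIs in each library, 0.246 and 0.310 CPM. The LPC-like cluster 4 held 13 and 8, at 1.39 and 0.601 CPM. All 25 WT and all 19 cKO Cx-like cells with Krt36 also held Krt35, as did 99.6% and 98.9% of those without it, and Krt86 was in 88.0% (68.8 to 97.5) and 100% (82.4 to 100) of them against 78.3% and 76.8%.

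Krt32, a type I keratin of the cuticle, was highest in the Cx-like cells and also found at a low level nearly everywhere. The Cx-like level was 24.5 CPM (20.0 to 29.7) in WT and 14.6 CPM (11.03 to 19.1) in cKO, from 104 and 55 UMIs in 35 and 24 cells. A single cell held 66 of the WT UMIs and another 27 of the cKO UMIs. Without both, the levels were 9.07 CPM (6.42 to 12.4) and 7.49 CPM (4.98 to 10.8). The companion-like cells, of the layer between the inner and outer root sheath, were next at 7.62 CPM (4.16 to 12.8) and 7.31 CPM (3.78 to 12.8). Their interval overlapped that of the Cx-like cells in cKO, and in both libraries once the single cells were left out. Cluster 8 was at 3.94 and 4.97 CPM, and the median over the 18 clusters was 2.05 and 1.95 CPM. Droplets without a cell held 5.91 and 4.54 CPM. In 15 clusters of each library the lower bound of the interval was above the 0.460 and 0.347 CPM that free RNA allows over all epithelial cells.

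In WT, most UMIs of Krt31 and Krt82 and 33 of the 77 of Krt33a came from 3 cells. Krt31 had 112 UMIs in 24 WT cells, of which 90 were in 2 cells, and 18 UMIs in 18 cKO cells. Krt82 had 52 UMIs in 4 WT cells, 49 of them in 1 cell, and 6 UMIs in 5 cKO cells. Krt33a was in 40 WT cells, its 33 UMIs being in the same 2 cells as those of Krt31, and had 38 UMIs in 35 cKO cells. None of the 3 met the rule for being on in any cluster. In all, 4 cells held at least 10 UMIs of a member other than Krt35 and Krt86, a limit set after their values were seen. They fall into 2 kinds, described next, and none was called as a doublet.

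A WT and a cKO Cx-like cell held the cuticle keratins. The WT cell had 45310 UMIs, more than any of the other 268 Cx-like WT cells, and held 66 UMIs of Krt32, 49 of Krt82, 5 of Krt36, 123 of Krt35 and 0 of Krt86. It also held 53 UMIs of Vsig8, a gene known from the hair cuticle, against 6 in all other WT Cx-like cells together. The cKO cell had 19049 UMIs and held 27 of Krt32, 2 of Krt82, 4 of Krt36, 102 of Krt35 and 4 of Krt86, with 17 of Vsig8 and 389 of S100a3, a calcium-binding protein abundant in the cuticle. Hephl1, a copper-dependent ferroxidase, had 18 and 10 UMIs in these cells, and Crat, carnitine acetyltransferase, 17 and 11.

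The other 2 cells, both WT, held the cortex keratins that follow Krt35. One was in the IRS-like cluster, with 20844 UMIs, and held 48 UMIs of Krt31, 18 of Krt33a, 3 of Krt36, 1 of Krt34, 16 of Krt35 and 4 of Krt86. The other, in the Cx-like cluster with 7818 UMIs, held 42 of Krt31, 15 of Krt33a, 2 of Krt36 and 9 of Krt35. Both held Gprc5d, a receptor known from hard keratinized structures (33 and 25 UMIs, against 0 in the other WT Cx-like cells), Krtap8-1 (62 and 26) and Krtap7-1 (24 and 17). Both also held keratins of the inner root sheath, 196 and 51 UMIs. No cKO cell of these kinds with cortex keratins was found. Without the 4 cells, Krt31 had 22 UMIs in WT and 18 in cKO, Krt33a 44 and 38, Krt36 60 and 40, and Krt82 3 and 4.

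**Figure D3:**
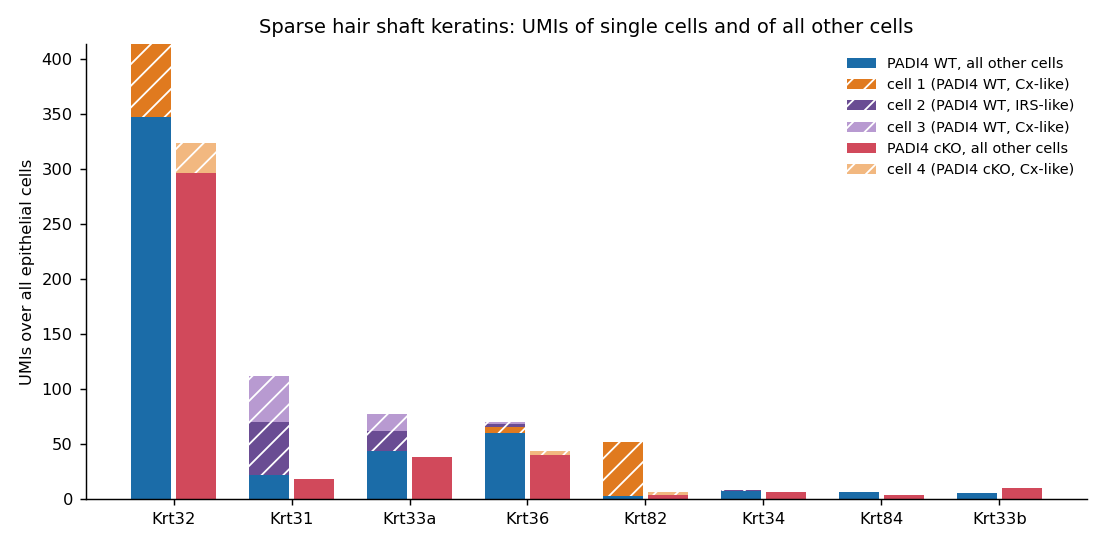
UMIs of the 8 members other than Krt35 and Krt86 over all epithelial cells, as 1 bar per library, with the UMIs of the 4 single cells hatched and stacked on those of all other cells. Cell 1 holds 49 of the 52 WT UMIs of Krt82, and cells 2 and 3 hold 90 of the 112 of Krt31.

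Krt33b, Krt34 and Krt84 were at the edge of detection. Krt33b, a cortex keratin, had 5 UMIs in WT and 10 in cKO, of which 4 and 7 were in the LPC-like cluster 4 and 0 in the Cx-like cells. Krt34, also of the cortex, had 8 and 6 UMIs, with 0 in the Cx-like cells. Krt84 had 6 UMIs in WT, all in the Cx-like cells and in 6 different cells, and 4 in cKO, none of them there. A count of 0 in the Cx-like cells allows a level of up to 0.869 CPM in WT and 0.982 CPM in cKO, by the exact Poisson interval. These 3 genes were therefore not detectable as on at this depth, and no comparison was made between the libraries.

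Within the Cx-like cells the sparse Krt36 moved with Krt35. The cells of each library were ranked by their Krt35 level and cut into 4 sets of like size, as a description with no test. From the lowest to the highest set, Krt35 itself went from 645 to 8331 CPM in WT and from 536 to 8826 CPM in cKO. Krt86 went from 89.5 to 120, 160 and 251 CPM in WT and from 76.3 to 139, 195 and 204 CPM in cKO. Krt36 was at 2.71, 0, 11.9 and 24.2 CPM in WT and at 0, 0, 10.3 and 28.5 CPM in cKO. Not every shaft keratin rose in this way. Krt32 was at 3.62, 11.9, 74.4 and 11.6 CPM in WT and at 7.22, 2.81, 42.4 and 9.49 CPM in cKO. Its peak in the third set came from 1 cell in each library. These cells held 66 of the 75 Krt32 UMIs of that set in WT and 27 of the 37 in cKO. Krt83 was at 19.9, 14.6, 13.9 and 30.0 CPM in WT and at 10.3, 23.4, 22.9 and 28.5 CPM in cKO. The highest set also had more Lef1 and Hoxc13, transcription factors of the shaft (1884 and 970 CPM in WT, against 836 and 359 in the lowest), and more Dsg4, the desmoglein of the hair shaft (276 against 44.3 CPM). Mki67, a marker of cycling cells, was at 515 CPM in the lowest WT set and 101 CPM in the highest, and at 383 and 40.3 CPM in cKO. The median depth was 15547 UMIs in the lowest and 13356 in the highest WT set.

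Cells were ordered from the GL-like state towards the Cx-like cells, and the bin in which each member came on was read from this order. Diffusion pseudotime was computed over 4454 cells of clusters 0, 5, 8, 9 and 14, without the members among the genes used. Its root, in cluster 5, was the cell with the highest share of UMIs from the GL markers, which include Hoxc13. The order was cut into 10 bins of equal cell number. Bin 8 held 197 cluster 8 and 13 Cx-like cells in WT, and 109 and 6 in cKO. Bin 9 held 143 and 87 in WT and 156 and 52 in cKO, and bin 10 held 66 and 165 and 64 and 151. The order was thus not a single path to the cortex, and values per bin mix levels with shares of these clusters. Krt86 first reached 10% of its highest bin in bin 7, Krt35 in bin 8 and Krt36 in bin 9, in both libraries. With 25% in place of 10%, Krt86 and Krt35 both came in bin 9 in both libraries, and with 20 bins both came after 70% of the cells in WT (70% and 75% in cKO), so that Krt86 came before Krt35 only under some settings. Krt35 went from 14.8 and 4.73 CPM in bin 1 to 217 and 110 CPM in bin 7, 700 and 433 CPM in bin 8 and 3748 and 3554 CPM in bin 10. Krt86 was at 19.0 and 16.1 CPM in bin 7 and 175 and 154 CPM in bin 10. Krt36 had 3 and 1 UMIs in bin 8 and 33 and 30 UMIs in bin 10. Along the same bins Hoxc13 went from 57.0 to 872 CPM in WT and Mki67 from 1003 to 61.8 CPM. Krt32 passed 10% in bin 6 in WT and bin 2 in cKO, and it had UMIs in 18 and 17 of the 18 clusters.

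**Figure D4:**
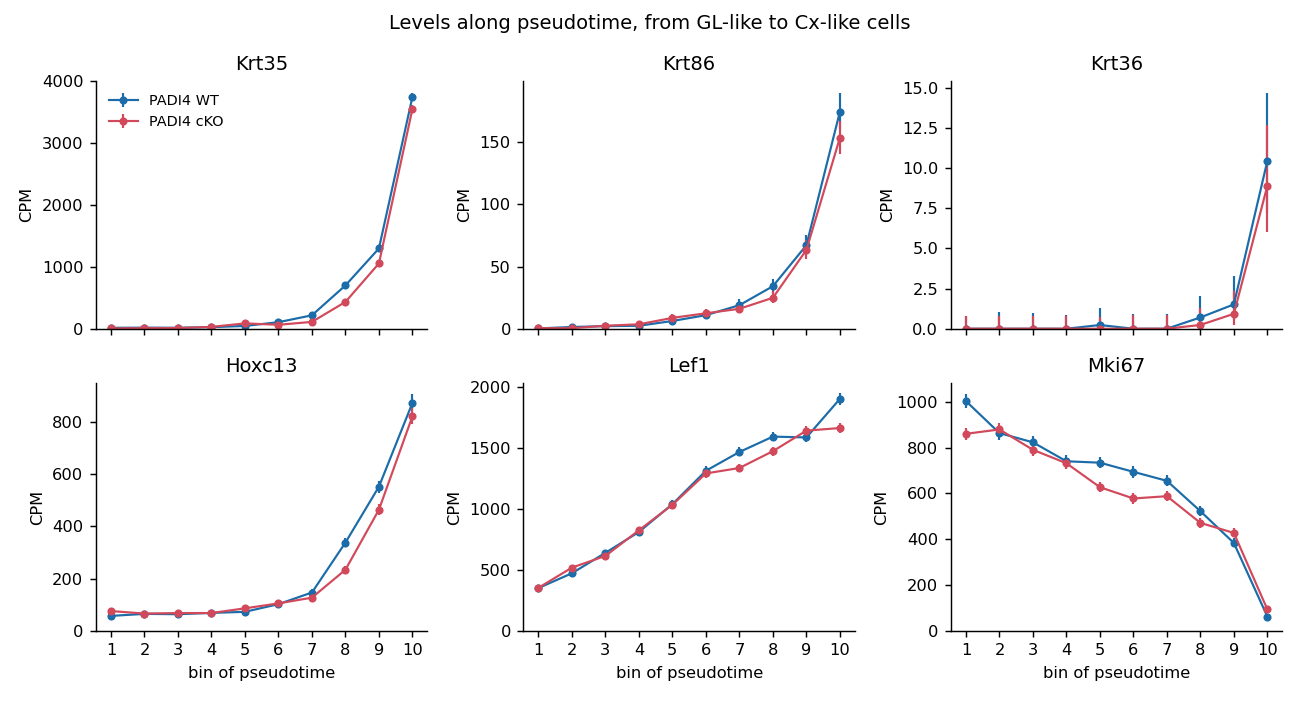
Level in CPM of Krt35, Krt86, Krt36, Hoxc13, Lef1 and Mki67 over 10 bins of diffusion pseudotime from GL-like to Cx-like cells, for both libraries, with exact 95% Poisson intervals and a linear axis of its own for each gene. Krt35 climbs to 3748 and 3554 CPM in bin 10 and Krt86 to 175 and 154 CPM, and Mki67 is lowest there. Bins 8 and 9 hold more cells of cluster 8 than Cx-like cells in both libraries.

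Between the libraries, the level of Krt35, which made up most of the sum, was nearly the same over all Cx-like cells. The other 9 members together were lower in cKO over these cells, a drop that rested mostly on a few single cells. The log2 ratio, cKO over WT, of the summed members was −0.03 (−0.07 to 0.00). That of the 9 members without Krt35 was −0.29 (−0.43 to −0.14), from 214.9 and 176 CPM. That of Krt35 was −0.02 (−0.05 to 0.01), that of Krt86 −0.03 (−0.19 to 0.14) and that of Krt36, with fewer than 100 UMIs, −0.10 (−0.81 to 0.60). The median of all 8016 genes with at least 100 UMIs was 0.01. Of the 3 members with at least 100 UMIs, 1 was past 0.5 in size, Krt32 at −0.74 (−1.24 to −0.26), against 4.75% of all genes (1.48% below −0.5 and 3.27% above 0.5). Without the 2 single cells that held most of its UMIs, Krt32 was at −0.27 (−1.03 to 0.47). With all 4 single cells left out, Krt86 was at −0.05 (−0.21 to 0.12) and Krt36 at −0.02 (−0.79 to 0.74). Krt31 then had 0 and 0 UMIs in WT and cKO, Krt82 1 and 1, Krt33a 4 and 5, and Krt84 6 and 0. Krt86, which held most of the UMIs of the 9 members, was then at 155 CPM in WT and 150 CPM in cKO. The drop of the 9 members together thus rested mostly on single cells. Without called doublets, which were 17 WT and 24 cKO cells with 5.997% and 13.2% of the Krt35 UMIs, Krt35 was at −0.079. At a clustering resolution of 2.0, where the leading group held 320 cells, the sum was at 0.089.

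In WT, Krt35 differed between Cx-like cells with Xist UMIs and those with Y-linked UMIs. It was at 4343 CPM (4223 to 4465) in the 77 WT cells with Xist and no Y-linked UMIs and at 3277 CPM (3205 to 3350) in the 155 with Y-linked and no Xist UMIs, and Krt86 at 208 and 145 CPM. All 209 cKO cells were of the first kind. With only such cells in both libraries, the log2 ratio, −0.02 for Krt35 over all Cx-like cells, was −0.32 (−0.37 to −0.28) for Krt35 and −0.47 (−0.69 to −0.24) for Krt86. Sex and animal cannot be told apart in these files, since no label ties a cell to an animal.

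In cluster 8, Krt35 was higher in cKO, with a log2 ratio of 0.23 (0.17 to 0.28) against a median of −0.01 over all genes, and 0 of its 2 members with at least 100 UMIs were past 0.5, against 4.3% of genes (3.21% below −0.5 and 1.08% above 0.5). Without called doublets the Krt35 levels there were 696 and 787 CPM. In the less rich clusters the ratios went both ways. They were below 0 in clusters 1 (−1.96), 4 (−0.60), 9 (−0.34), 3 (−0.32) and 7 (−0.31), near 0 in cluster 0 (−0.01) and above 0 in cluster 5 (0.38). Krt86 in cluster 0 was at 0.56 (0.16 to 0.97). In cluster 1, 5 WT cells held 61.5% of the Krt35 UMIs, and in cluster 7, called doublets held 58.4% in WT and 88.8% in cKO.

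**Figure D5:**
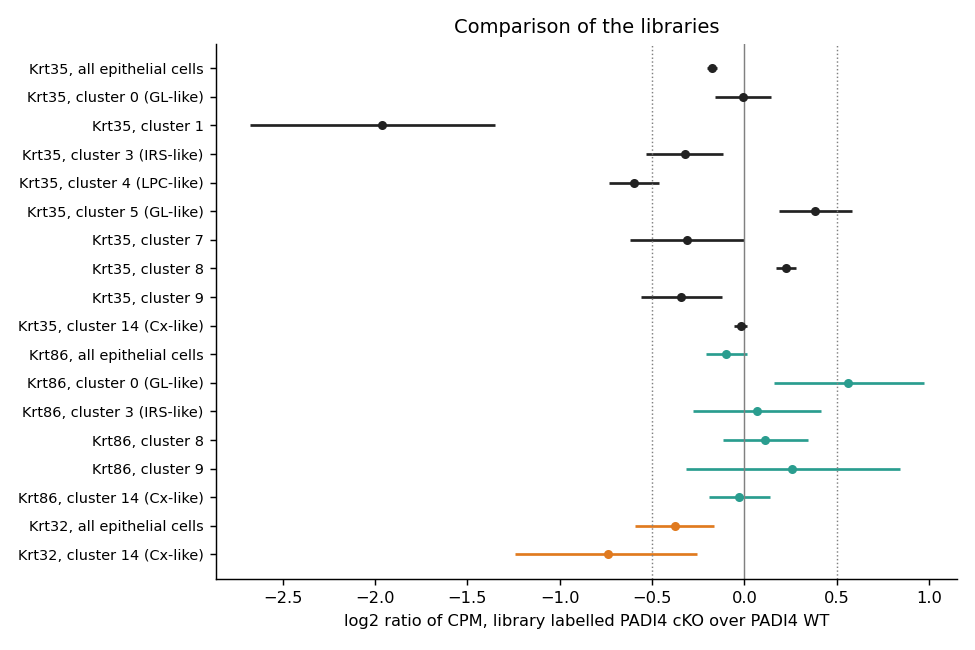
Log2 ratio of cKO over WT for Krt35, Krt86 and Krt32 in clusters and over all epithelial cells, with exact 95% intervals, a line at 0 and dotted lines at 0.5 and −0.5. Krt35 and Krt86 of the Cx-like cells lie at −0.02 and −0.03, and the value furthest from 0 is that of Krt35 in cluster 1, at −1.96.

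Over all epithelial cells together, the summed members were at −0.18 and Krt35 at −0.17 (−0.20 to −0.15). Of 6 members with at least 100 UMIs, 3 were past 0.5, all below 0, against 5.15% of all 14901 genes (3.58% below −0.5 and 1.57% above 0.5). These were Krt31 at −2.63, Krt33a at −1.03 and Krt36 at −0.69. Without the 4 single cells, Krt31 was at −0.31 and Krt33a at −0.23, while Krt36 stayed past 0.5 in size at −0.60 (−1.23 to −0.01). Krt86 was at −0.10 and Krt32 at −0.38. The Cx-like cells and cluster 8, where most of this mRNA lay, made up fewer of the cKO cells, so a value over all cells mixes levels with shares of cells.

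The other genes of the shaft program were described from lists chosen by function, with the results of these data already known. Of 5 other hair keratins, Krt87 was at 59.4 and 48.2 CPM in the Cx-like cells and Krt83 at 19.6 and 21.04 CPM, Krt81 had 3 and 2 UMIs and Krt39 0 and 2, and 0 of the 2 with at least 100 UMIs were past 0.5. The Krt87 values are uncertain, since it shared 67.2% of its 31-base stretches with Gm49425 (chr15:101515920-101517261, minus strand), itself at 1639 and 1570 CPM there. Of 57 keratin-associated proteins, the matrix in which the filaments lie, 46 had no UMI in the Cx-like cells and only Krtap3-3 had at least 100, with 67 and 83 UMIs. Krtap8-1, with 60 and 38 UMIs in the Cx-like cells (14.1 and 10.1 CPM), was higher in cluster 8, at 130 and 95.9 CPM. Keratins of the inner root sheath were present beside the hair keratins: Krt28 was at 697 and 738 CPM, Krt25 at 140 and 159 CPM and Krt27 at 107 and 90.3 CPM, and 0 of 3 compared were past 0.5.

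Regulators of the shaft were abundant in the Cx-like cells and mostly alike between the libraries. Lef1, which acts with β-catenin, was at 1324 and 1231 CPM, and Hoxc13, known to bind hair keratin promoters, at 714 and 683 CPM. At least 100 UMIs were found for 12 of 14 regulators, and 1 of these was past 0.5 (4.75% of all genes), Gata3, a regulator of the inner root sheath, at 41.2 and 71.1 CPM (0.78). Among the 5 of 8 structural proteins and enzymes with at least 100 UMIs, Selenbp1 (−1.56) and Padi3 (−0.91), an enzyme that citrullinates shaft and sheath proteins, were below −0.5 (1.48% of all genes). Of the 4 progenitor genes of the bulb, 3 were above 0.5 (3.27% of all genes), Edar at 1.21, Lgr5 at 0.75 and Ptch1 at 0.54, and Shh was at 0.35. Of the 5 cycling genes, 0 were past 0.5, with Mki67 at −0.45.

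The genes most like each member that was on were ranked by Pearson's correlation of log2(CPM + 1) over 38 points, each a cluster in 1 library, among 14901 genes. The points share libraries and cell types, so no p is given. For Krt35 these were Gm49425 (0.95), Crhr1 (0.95) and Krt87 (0.92), and for Krt86 Gm49425 (0.96), St14 (0.96) and Atad2b (0.95). For Krt36 they were Gm15389 (0.90), Hes2 (0.90) and Fap (0.88). Krt32 had no gene as close, with Rnf149 (0.78), Fam25c (0.76) and Atg4b (0.75).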

How the data were processed

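The authors deposited unfiltered UMI counts for each gene in each barcode, obtained by Cell Ranger from Chromium 3′ v3.1 reads of 1 PADI4 WT library and 1 library labelled PADI4 cKO. The submitters' processing notes name mm10 and Scanpy. No normalization was applied in these files, and whether intronic reads were counted is not given in the sources used here. The cell filters of the study were applied (2000 to 60000 UMIs, between 1000 and 8000 genes, up to 20% mitochondrial and up to 1% hemoglobin UMIs, ribosomal share from percentile 5 to 99) and left 8070 WT and 7393 cKO droplets. Fibroblast-like and melanocyte-like cells, 75 and 36, were left out as in the study. The study's background removal (CellBender) and Harmony correction were not run, so free RNA remains in the values.

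Each cell was scaled to a total of 10000 and log-transformed. After the members, the Padi genes and the cell-cycle genes had been taken out, 1000 variable genes with S and G2M scores regressed out, 50 principal components and 15 neighbors gave Leiden clusters at resolution 1.0 (Scanpy 1.11.5, leidenalg 0.10.2, SciPy 1.17.1, NumPy 2.4.6, matplotlib 3.10.9, Python 3.11.15). A cluster was named where at least 3 markers of a list reached 5 CPM and exceeded the remaining cells 1.5-fold, with more such markers than any other list and no list with more markers among the 10 leading genes, which left cluster 8 without a name. A cluster with at least 90% of its cells in WT was not named. Where lists tied, the list with more markers among the 10 leading genes gave the name, a rule set after cluster 14 had been seen. Scrublet's automatic threshold failed in WT, so both libraries were given that of cKO, 0.193, a choice made after seeing this; it called 289 (3.58%) and 300 (4.06%) cells, which were kept unless stated.

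Levels are summed UMIs as CPM with exact Poisson intervals, shares have exact Clopper-Pearson intervals, and ratios between libraries are log2 ratios of CPM with 0.5 UMI added and exact conditional binomial intervals. Ratios were compared for genes with at least 100 UMIs over both libraries. With 1 library per group there was no replicate check. The ratio script was tested on simulated data. Named genes were the 10 members, the functional lists, the 3 genes most like each member, and genes of the single cells, chosen after their values were seen. Transcript stretches and positions came from GENCODE M21, which held 32235 of the 32285 gene IDs. The members and lists were chosen with earlier results of these data known. The alternatives tried were other cell filters, doublets left out, other resolutions, members among the clustering genes, cells of 1 sex, other limits, thinning, and other pseudotime settings.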

Additional observations from a re-analysis of the deposited data

Results flagged for a closer look

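Krt35 was found in droplets that the cell filters removed although they held at least 2000 UMIs, which no comparison above used. It was at 310.02 CPM (294 to 326) in 489 such droplets of the cKO library, above the 258 CPM (245 to 272) of 715 such droplets in WT. These droplets held 1451 and 1428 Krt35 UMIs.

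The Krt35 log2 ratio, cKO over WT, had opposite signs in different clusters, with intervals that excluded 0 on either side. It was 0.38 in the GL-like cluster 5 and 0.23 in cluster 8, and −1.96 in cluster 1, −0.32 in the IRS-like cluster 3, −0.60 in the LPC-like cluster 4, −0.31 in cluster 7 and −0.34 in cluster 9. The difference between the clusters was not tested, since there was 1 library per group. Without called doublets the WT and cKO levels were 28.2 and 20.5 CPM in cluster 5, the opposite direction, 696 and 787 CPM in cluster 8, 10.8 and 2.25 CPM in cluster 1, 30.8 and 21.1 CPM in cluster 3, 89.6 and 61.0 CPM in cluster 4, 14.5 and 3.34 CPM in cluster 7 and 60.1 and 48.8 CPM in cluster 9.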

How the results depend on the processing

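Of 114 values under alternatives, 84 stayed within their tolerance, 28 moved and 2 reversed. The share of member UMIs in the leading cell group was 60.3% in cKO with a limit of 1000 UMIs per cell, 62.4% in WT with a limit of 4000, 60.2% in WT without called doublets, and 51.3% and 44.5% in WT and cKO at resolution 2.0. In that group the log2 ratios of the sum and of Krt35 were −0.12 and −0.10 with a limit of 4000 UMIs, −0.092 and −0.079 without called doublets, and 0.089 (a change of sign) and 0.11 at resolution 2.0, where the group held 320 cells and 64.9% of the Cx-like cells of the main clustering. With only cells that had Xist and no Y-linked UMIs they were −0.33 and −0.32, Krt86 was at −0.47, Krt32, under the minimum of 100 UMIs there, at 0.99 (−0.01 to 2.35, a change of sign), and the sum over all epithelial cells at −0.40, against −0.25 without called doublets. The number of members past 0.5 was 0 with these cells, with a minimum of 500 UMIs, with a limit of 1.0 and, chosen after seeing the data, without the 4 single cells, and 2 with a minimum of 50 UMIs. Thinned to 2000 UMIs, 92.6% and 92.8% of the cells held a member. The percent of cells before the first bin was 80 for Krt86 in both libraries and 80 and 70 for Krt32 in WT and cKO with a limit of 25%, 70 for Krt32 in WT with 20 bins, and 30 for Krt32 in cKO along the first diffusion component. The cause of these moves was not tested.

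No paired analysis was possible because each group had 1 library and no result came from a test. Of the 10 members, 6 were on in no cluster. In the Cx-like cells Krt31 had 42 and 0 UMIs and Krt82 50 and 3 in WT and cKO, nearly all in 1 WT cell each, and the other 4 had at most 19 UMIs in a library.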

Other observations

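Krt31 was also uneven between droplets without a cell. These held 21 Krt31 UMIs in WT, 3.45 CPM (2.13 to 5.27), and 1 in cKO, 0.130 CPM (0.003 to 0.722), while Krt35 there was at 192 and 209 CPM. In WT the droplets without a cell thus held Krt31 at a level above that over all epithelial cells without the 4 single cells, 0.173 CPM.

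Among melanocyte-like cells, Krt35 was found in 1 of 26 WT cells, which held 10 UMIs, and in 2 of 10 cKO cells, which held 4.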
